A study of Mus musculus with 5 samples.

Results

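The 9 genes described here encode the enzymes and transporters that carry dietary sugar from the gut lumen into the enterocyte and handle fructose inside it. They were chosen by symbol from the small intestine count table, and all 9 had a row among its 19198 genes: Sis, Lct, Treh, Mgam, Slc5a1, Slc2a2, Slc2a5, Khk and Fbp1. The study asked what deleting the M4 muscarinic acetylcholine receptor (mAChR4, gene Chrm4) in Math1-expressing cells does to gene expression in the mouse small intestine. The Cre-negative group was 3 mAChR4 fl/fl mice. The Cre-positive group was 2 mice with the same floxed receptor plus Math1Cre*PR, a Cre recombinase that RU486 switches on. The labels give no litter. Both groups were gavaged with RU486 at 10 mg/kg for 4 days, daily, and the drug and the floxed allele were therefore shared. The design text names the whole small intestine as the tissue, and the sources used here give no strain, age or sex, nor whether the RNA came from the full length or from a piece. Math1 (Atoh1) is a factor of secretory cells, whereas the genes below belong to absorptive enterocytes. With no Cre-positive mouse carrying an unfloxed receptor, effects of active Cre and of the receptor cannot be told apart.

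Starch fragments, sucrose, lactose and trehalose are split at the brush border by enzymes anchored in the enterocyte membrane. Glucose and galactose then enter with sodium through SGLT1 (Slc5a1), fructose enters through GLUT5 (Slc2a5), and GLUT2 (Slc2a2) passes sugars toward the blood. Fructose is trapped by ketohexokinase (Khk), and fructose-1,6-bisphosphatase (Fbp1) belongs to the route from such fragments back to glucose. Lactase, GLUT2 and several of the others are known for high levels in the jejunum and low levels in the ileum, and the transcription factor GATA4 is a marker of the duodenum and jejunum that is silent in the distal ileum. Ileal enterocytes instead express the bile acid carrier Slc10a2 and the bile acid binding protein Fabp6.

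Libraries held 4681119 to 6618204 estimated counts, and levels are given as CPM (each count as a share of its library), scaled between libraries by edgeR's TMM factors. The library Cre-positive 1 stood apart from the other 4. It held 2 counts of Gata4 where the others held 103 to 291, and the 9 leukocyte markers, all with a row in the table, summed to 426 CPM there against 32.6 to 47.7 CPM in the rest. Among those markers the B cell gene Cd79a was at 0 counts in the other 4 libraries. The largest parts of the sum in Cre-positive 1 were Jchain (179 CPM), Ptprc (159 CPM) and Ms4a1 (42.8 CPM). Adgre1, Csf1r and Cd68 differed less, at 7.55, 9.29 and 2.90 CPM there and 8.39, 7.67 and 2.16 CPM in Cre-negative 1. The 16 epithelial markers, such as Epcam and Vil1, summed to 4370, 4389 and 4727 CPM in the Cre-negative and 4462 and 5698 CPM in the Cre-positive mice. Single epithelial markers had log2 gaps between the highest and the lowest library of 0.40 (Cdh1) to 1.84 (Cldn15). Of 15 tested markers of mature enterocytes, the cells that carry the sugar genes, 10 were lowest in Cre-positive 1, beside 29.0% of all genes. Among them Fabp2, the intestinal fatty acid binding protein, had 1445, 616 and 968 CPM in the Cre-negative and 314 and 1233 CPM in the Cre-positive mice. Alpi, the intestinal alkaline phosphatase, had 453, 231 and 384 CPM and 114 and 533 CPM, whereas Anpep, a brush-border peptidase, had 2927, 3694 and 3473 CPM and 3735 and 4478 CPM. The 12 smooth muscle markers summed to 4592, 2348 and 1784 CPM in the Cre-negative and 1463 and 1739 CPM in the Cre-positive mice, and the 7 goblet cell markers to 574 to 1363 CPM and to 5079 and 2279 CPM. The part of enterocyte, muscle, goblet or immune content in the values below was not tested. Of 12 pancreatic acinar, 4 islet and 9 liver markers, 1, 0 and 2 had a row, each at under 4 CPM in every library. Chrm4 itself had 4, 20 and 4 counts in the Cre-negative and 13 and 5 in the Cre-positive mice, too few to check the genotype, and the labels do not say which part of it is floxed.

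Upstream sequence is shown for Lct, Sis and Slc2a2 as examples: Lct and Slc2a2 varied most between libraries among the 9 genes, and Sis is a far more abundant brush-border enzyme that varied less. Each line is the 250 bases before the RefSeq start site in GRCm38.p6, read 5′ to 3′ on the gene's own strand. The windows are chr1:128328319-128328568 (Lct, minus strand), chr3:72967864-72968113 (Sis, minus strand) and chr3:28697653-28697902 (Slc2a2, plus strand). Capitals mark matches on either strand to the GATA motif (AGATAA in its first form, TGATAA in its second, besides AGATAG and also TGATAG).
Lct: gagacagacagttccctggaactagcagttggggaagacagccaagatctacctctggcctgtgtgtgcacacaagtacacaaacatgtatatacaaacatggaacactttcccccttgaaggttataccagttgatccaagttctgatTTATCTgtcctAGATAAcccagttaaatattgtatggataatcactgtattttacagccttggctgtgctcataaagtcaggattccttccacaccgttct
Sis: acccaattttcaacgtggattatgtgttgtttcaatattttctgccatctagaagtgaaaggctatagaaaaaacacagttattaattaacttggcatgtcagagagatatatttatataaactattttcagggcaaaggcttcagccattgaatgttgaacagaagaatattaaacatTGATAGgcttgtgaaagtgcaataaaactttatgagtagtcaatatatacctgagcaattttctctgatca
Slc2a2: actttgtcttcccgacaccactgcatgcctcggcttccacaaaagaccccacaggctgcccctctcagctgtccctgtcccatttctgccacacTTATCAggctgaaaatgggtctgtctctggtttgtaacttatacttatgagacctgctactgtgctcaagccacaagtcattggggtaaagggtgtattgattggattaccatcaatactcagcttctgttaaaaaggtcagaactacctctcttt
Lct held 2 GATA matches, starting 101 and 90 bases before the start site, Sis had 1 at 71 bases, and Slc2a2 had 1 GATA match at 156. No marked matches overlapped each other. Over the 9 genes, all of which had a RefSeq promoter, 5 held a GATA match (Sis, Lct, Mgam, Slc2a2 and Fbp1), beside 26.5% of 32851 promoter windows of the same length. Searched likewise on both strands, the intestinal factor motif CDX (TTTATG) was found in 2 (Sis and Lct), beside 10.8% of windows, and the HNF4 motif (CAAAGTNCA) in 1 (Treh), beside 1.2%. Slc5a1, Slc2a5 and Khk, whose libraries ran in the same order as for Gata4 (below), held no GATA match. Mgam and Fbp1, which did not show that order, held matches. A match describes letters only and says nothing of binding.

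The 4 disaccharidase genes spanned very different ranges between mice, and in none did the groups separate. Lct, encoding lactase (chromosome 1, 128284756 to 128328318, 17 exon blocks, GRCm38), stood at 259, 15.8 and 881 CPM in Cre-negative 1, 2 and 3 and at 3.48 and 632 CPM in Cre-positive 1 and 2. The lowest and the highest Cre-negative mouse thus differed 56.0-fold, and the Cre-positive mice 181-fold (95% counting interval 115 to 306, on 18 counts in Cre-positive 1). Sis, encoding sucrase-isomaltase (chromosome 3, 72888557 to 72967863), had 4845, 2740 and 8139 CPM in the Cre-negative and 1899 and 6753 CPM in the Cre-positive mice. Its spread was 2.97-fold among Cre-negative and 3.56-fold among Cre-positive mice, with Cre-positive 1 the lowest of the 5, as for Lct. Treh, encoding trehalase (chromosome 9, 44673233 to 44686305), had 39.3, 14.8 and 52.1 CPM in the Cre-negative and 7.55 and 36.4 CPM in the Cre-positive mice. Mgam, encoding maltase-glucoamylase (chromosome 6, 40628831 to 40769123), differed from the other 3: it had 3057, 3475 and 7607 CPM in the Cre-negative and 3553 and 5885 CPM in the Cre-positive mice. Here Cre-positive 1 was not the lowest library but stood in the middle of the 5. Deposited counts of Sis and Mgam were not whole in any of the 5 libraries, as can happen when reads shared with other genes are split, so their values are uncertain. The related gene Mgam2-ps had 147 to 431 CPM.

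**Figure D1:**
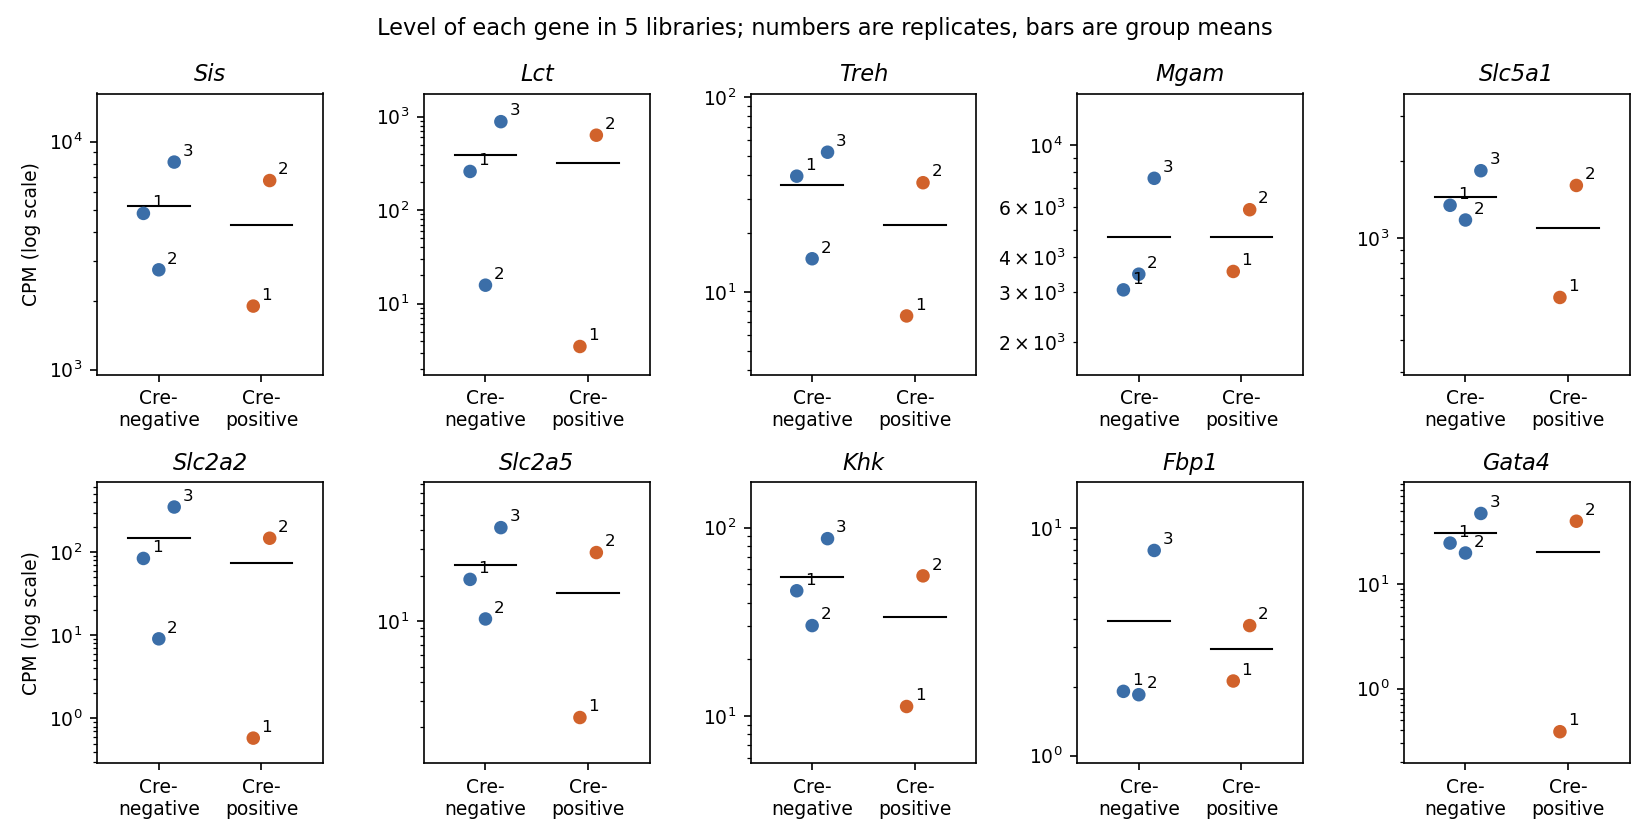
Level of each of the 9 sugar genes and of Gata4 in the 5 libraries, in CPM on a log axis whose range differs between panels; points are mice, numbers are replicates and horizontal bars are group means. The 2 Cre-positive mice lie apart from each other in every panel, by 181-fold for Lct and 1.66-fold for Mgam, and the groups overlap in every panel.

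The sugar transporters ran from a gene with a modest spread, Slc5a1, to the gene with the widest spread in the data set, Slc2a2. Slc5a1, for the sodium-driven glucose carrier SGLT1 (chromosome 5, 33104219 to 33162870), had 1343, 1177 and 1833 CPM in the Cre-negative and 587 and 1605 CPM in the Cre-positive mice. Only Cre-positive 1 fell outside the range of the Cre-negative mice. Slc2a2, for the facilitative carrier GLUT2 (chromosome 3, 28697903 to 28731359), had 84.1, 9.08 and 349 CPM in Cre-negative mice and 147 CPM in Cre-positive 2, while Cre-positive 1 held 3 counts, or 0.581 CPM (95% Poisson interval 0.120 to 1.70, counting error only). Cre-positive 2 therefore exceeded Cre-positive 1 by 254-fold, with a counting interval of 86.5 to 1232, and Cre-negative 3 exceeded Cre-negative 2 by 38.5-fold. On log2 CPM with a prior count of 2, the gap between its highest and lowest library was 8.53, rank 1 of 14352 genes tested, and Lct was rank 6 at 7.84. Slc2a5, for the fructose carrier GLUT5 (chromosome 4, 150119283 to 150144169), had 18.9, 10.4 and 41.5 CPM in the Cre-negative and 2.32 and 28.4 CPM in the Cre-positive mice. Its ordering of libraries was that of Slc2a2, at a smaller spread of 4.00-fold among Cre-negative mice. Log2 gaps were 3.96 for Slc2a5 and 1.64 for Slc5a1, against a median of 0.93 over all genes tested, and 5 of the 9 genes (Lct, Slc2a2, Slc2a5, Khk and Treh) lay in the top 5% of genes by this gap.

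Both fructose-handling genes stood well below Sis, Mgam and Slc5a1 per kilobase of exon. Khk (chromosome 5, 30921431 to 30931248) had 46.2, 30.2 and 87.5 CPM in the Cre-negative and 11.2 and 55.5 CPM in the Cre-positive mice. It was again highest in Cre-negative 3 and lowest in Cre-positive 1, with 4.94-fold between the Cre-positive mice (counting interval 3.74 to 6.64). Fbp1 (chromosome 13, 62864753 to 62888282) was scarce, with 8, 10 and 49 counts in the Cre-negative and 11 and 24 in the Cre-positive mice, or 1.92, 1.85, 7.98, 2.13 and 3.73 CPM. Counting error alone spans 1.06 to 3.81 CPM in Cre-positive 1 and 0.828 to 3.78 CPM in Cre-negative 1, so only Cre-negative 3 stood clear of these 2 libraries at this depth.

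Scaled to exon length, Sis, Mgam and Slc5a1 had the highest medians of the 9 genes, and the others spread over a wide range below them. Medians over the 5 libraries were 649 CPM per kilobase for Sis, 408 for Mgam and 327 for Slc5a1, then 40.4 for Lct, 25.7 for Khk, 17.8 for Treh, 14.6 for Slc2a2, 5.56 for Slc2a5 and 1.25 for Fbp1. Slc5a1 exceeded Lct in 5 of 5 libraries with no overlap of their ranges (143 to 447 against 0.544 to 138 CPM per kilobase). Neighbouring genes elsewhere in this order overlapped in range. Sis was above Mgam in 3 of 5 libraries, Lct above Khk in 3, Treh above Slc2a2 in 3 and Slc2a2 above Slc2a5 in 3, so those places in the order depend on the mouse. Mgam stood above Slc5a1 and Khk above Treh within each of the 5 libraries.

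The test made no call among the sugar genes, and for each of the 9 the range within either group was wider than the difference between the group means. Of the 9, 0 passed edgeR's quasi-likelihood test after Benjamini-Hochberg adjustment over 14352 genes, beside 0% of all genes, and 0 had an unadjusted p under 0.05, beside 3.38% (485) of all genes. DESeq2 called 0 of the 9 and 0.132% of all genes, limma-voom 0 and 0%. CPM values separated the groups for 0 of the 9, beside 18% of genes tested. On the log2 scale the Cre-positive to Cre-negative fold change (± SE) was -0.28 ± 0.64 for Sis, -0.28 ± 1.95 for Lct, -0.68 ± 0.74 for Treh and 0.00 ± 0.48 for Mgam (edgeR adjusted p = 0.977, 0.991, 0.977 and 0.9997). It was -0.40 ± 0.45 for Slc5a1, -0.99 ± 1.89 for Slc2a2 and -0.61 ± 0.99 for Slc2a5, and -0.71 ± 0.72 for Khk and -0.43 ± 0.74 for Fbp1 (edgeR adjusted p = 0.977 for each). Group means of Lct were 385 ± 446 CPM (SD, n = 3 Cre-negative) and 318 ± 444 CPM (SD, n = 2 Cre-positive), and those of Slc2a2 were 148 ± 179 and 73.9 ± 104 CPM. The standard errors of Lct and Slc2a2 are too wide to bound a change of a few fold in either direction. Those of Sis, Treh, Slc2a5, Khk and Fbp1, from 0.64 to 0.99, also leave a decrease of a few fold unbounded. An increase is not tightly bounded for them either. The SE of 0.45 for Slc5a1 and 0.48 for Mgam bound neither gene tightly. The median log2 fold change of the 9 was -0.43, with 8 negative and 1 positive, beside a median of -0.04 over all genes tested. Without Cre-positive 1, 7 of the 9 turned positive, with values from 0.02 for Slc2a2 to 0.74 for Lct, while Mgam had 0.35 and Fbp1 -0.08. Without Cre-positive 2 the same contrast gave -6.74 for Lct, -7.90 for Slc2a2 and -3.30 for Slc2a5. In such fits the Cre-positive group is 1 mouse that is assumed to vary like the others. Without Cre-negative 3, the library with the highest level of each of the 9 genes, the log2 fold changes of Lct, Slc2a2, Fbp1, Sis and Slc2a5 turned to 1.26, 0.72, 0.68, 0.23 and 0.12.

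**Figure D2:**
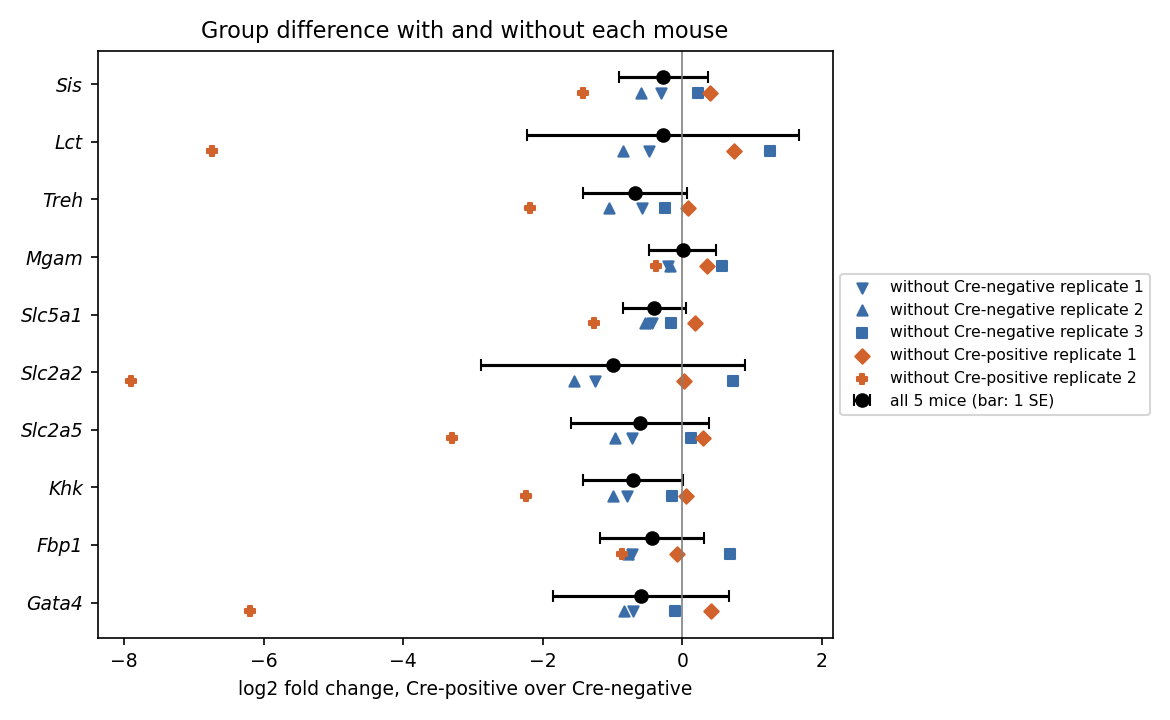
Log2 fold change between the groups (Cre-positive to Cre-negative) for the 9 sugar genes and Gata4 with all 5 mice (black points, bars of 1 SE from edgeR) and with each mouse left out in turn (coloured symbols). Leaving out Cre-positive 2 moves Lct to -6.74 and Slc2a2 to -7.90, and leaving out Cre-positive 1 brings all of the 9 except Fbp1 above 0.

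The libraries fell in nearly the same order for the sugar genes as for Gata4, and that order cut across genotype. Gata4 (chromosome 14, 63198922 to 63271692) had 24.7, 19.8 and 47.4 CPM in Cre-negative 1, 2 and 3, and 0.387 CPM (2 counts, 95% Poisson interval 0.0469 to 1.40) and 39.9 CPM in Cre-positive 1 and 2. Ranked by Gata4 the libraries ran Cre-negative 3, Cre-positive 2, Cre-negative 1, Cre-negative 2 and Cre-positive 1. Exactly this order was shown by 6 of the 9 sugar genes (Sis, Lct, Slc5a1, Slc2a2, Slc2a5 and Khk), beside 2.31% of all genes tested. All 9 were highest in Cre-negative 3, beside 17.0% of genes tested, and 7 were lowest in Cre-positive 1, beside 29.0%. Of the 15 tested markers of mature enterocytes, 10 were likewise lowest in Cre-positive 1. Only 2 of those 15 were highest in Cre-negative 3, and 2 had the Gata4 order. Among the 4 libraries other than Cre-positive 1, 7 of the 9 kept the Gata4 order, beside 6.15% of genes tested. The exceptions were Treh, in which Cre-negative 1 exceeded Cre-positive 2, and Mgam, in which Cre-negative 2 exceeded Cre-negative 1. For Fbp1 the order of Cre-negative 1 and Cre-negative 2 rested on 8 against 10 counts, or 1.92 against 1.85 CPM. Counting intervals of those libraries overlapped for Fbp1 and for Gata4 itself. The intervals of Cre-negative 3 and Cre-positive 2 also overlapped for Gata4, at 42.1 to 53.2 and 35.2 to 45.1 CPM. For Treh the intervals of Cre-negative 1 and Cre-positive 2 overlapped, at 33.5 to 45.8 and 31.9 to 41.4 CPM. Counting error alone therefore leaves these places in the order unsettled. The ileal bile acid carrier Slc10a2 had the reverse order exactly, at 6.52 CPM in Cre-negative 3, 45.9 in Cre-positive 2, 218 in Cre-negative 1, 376 in Cre-negative 2 and 810 in Cre-positive 1. Fabp6 had 0.652, 6.37, 47.7, 61.3 and 47.6 CPM in the same sequence of libraries, so it separated the top 2 from the other 3. The remaining position markers were mixed: of the 12 tested, 3 had the Gata4 order (Gata4 itself, Cyp4v3 and Fabp1) and Slc10a2 alone the reverse. Slc40a1, an iron exporter gene of the same list, was highest in Cre-positive 1, where Gata4 was lowest. It was lowest in Cre-negative 3, where Gata4 was highest. It had 8.63 CPM in Cre-negative 3, 25.2 in Cre-positive 2, 19.4 in Cre-negative 1, 96.7 in Cre-negative 2 and 234 in Cre-positive 1. Fgf15, a hormone of the ileum, was lowest in Cre-negative 3 at 0.815 CPM but stood at 27.4 CPM in Cre-positive 2, 49.6 in Cre-negative 1, 2.96 in Cre-negative 2 and 14.7 in Cre-positive 1. Cubn, an ileal vitamin B12 receptor, had 659, 1590, 2021, 554 and 883 CPM in that sequence, in neither order. Cybrd1, also of this list, had 8.80, 11.5, 36.4, 11.3 and 7.35 CPM in that sequence, again in neither order. The tissue is described as whole small intestine, and whether the balance of proximal and distal tissue differed between the extracts was not tested beyond these markers. In bulk tissue, fewer cells of a type and less RNA per cell cannot be told apart.

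The size of the change did not follow Gata4 evenly. Cre-negative 2 and Cre-negative 1 were close in Gata4, at 19.8 and 24.7 CPM with overlapping counting intervals (16.3 to 23.96 and 20.2 to 29.9 CPM), yet Lct was at 15.8 against 259 CPM and Slc2a2 at 9.08 against 84.1 CPM. Slc5a1 differed little between those mice, at 1177 against 1343 CPM. With the log2 CPM of Gata4 as a term beside genotype, the log2 fold change turned positive for 6 of the 9, to 0.38 for Sis, 0.85 for Lct, 0.07 for Slc5a1, 0.07 for Slc2a2, 0.20 for Slc2a5 and 0.10 for Fbp1, and 0 of the 9 were called (edgeR). In that fit Treh and Khk had 0.00 and Mgam had 0.41. Gata4 was at 0.387 CPM in Cre-positive 1 and at 19.8 to 47.4 CPM in the other libraries, so this term rests largely on that mouse. Leaving Cre-positive 1 out gave 0.40 for Sis, 0.74 for Lct and 0.29 for Slc2a5, but -0.08 for Fbp1. With 5 mice, a term for Gata4 and the omission of that mouse are hard to tell apart. Gata4 had a log2 fold change of -0.59 ± 1.25 between the groups (edgeR adjusted p = 0.977), which became 0.41 without Cre-positive 1 and -6.19 without Cre-positive 2.

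**Figure D3:**
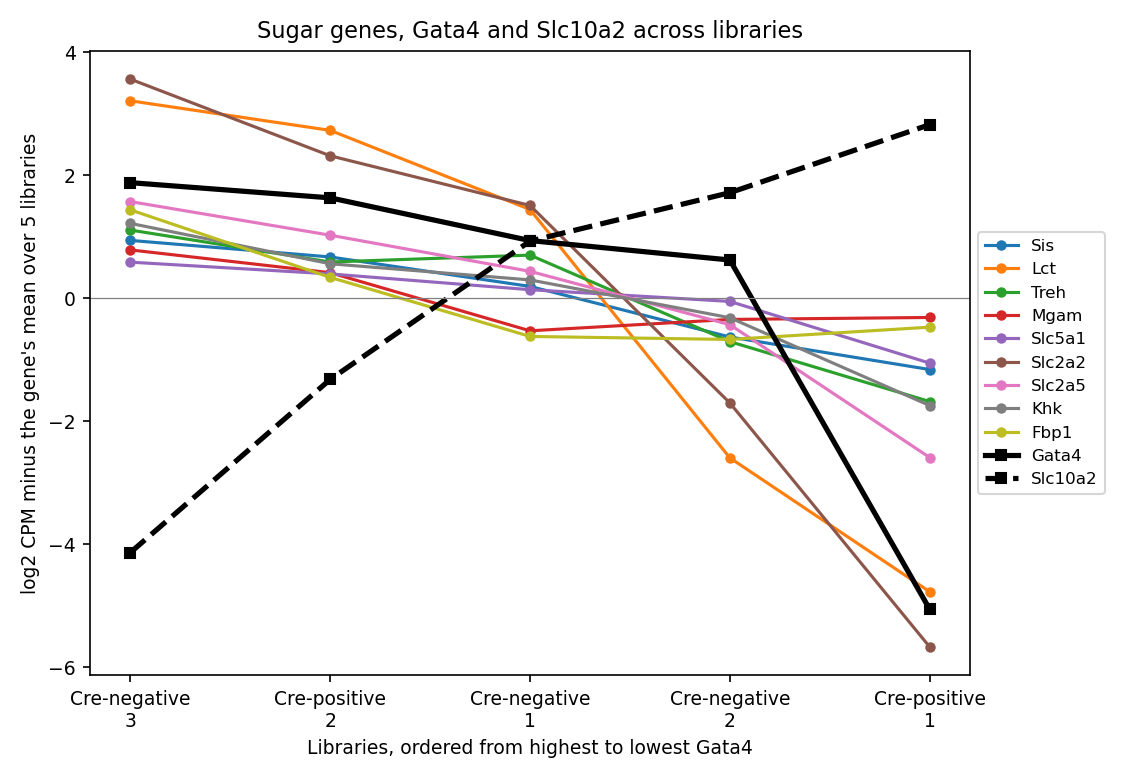
Log2 CPM of the 9 sugar genes, Gata4 (solid black) and Slc10a2 (dashed black), each minus its own mean over 5 libraries, with libraries ordered from highest to lowest Gata4. Lct and Slc2a2 fall most steeply, Slc10a2 climbs from 6.52 to 810 CPM in the same sequence, and Mgam and Fbp1 flatten over the last 3 libraries.

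The make-up of the sugar program also shifted between libraries, which can be read from ratios of counts within a library, where scaling between libraries plays no part. Lct counts per Sis count were 0.108 in Cre-negative 3, 0.0935 in Cre-positive 2 and 0.0534 in Cre-negative 1, but 0.00575 in Cre-negative 2 and 0.00184 in Cre-positive 1. The ratio of Slc2a2 to Slc5a1, basolateral against apical glucose carrier, was 0.191, 0.0917 and 0.0626 in the first 3 of these and 0.00771 and 0.000989 in the last 2. Slc2a5 counts exceeded Slc2a2 counts in Cre-negative 2 (1.14 per Slc2a2 count) and in Cre-positive 1 (12 against 3 counts), and were 0.119 to 0.225 of them in the other 3. Sis to Mgam ran from 0.534 in Cre-positive 1 and 0.788 in Cre-negative 2 to 1.07, 1.15 and 1.59 in Cre-negative 3, Cre-positive 2 and Cre-negative 1. Both Cre-negative 2 and Cre-positive 1 therefore had the lowest values of Lct to Sis, Slc2a2 to Slc5a1 and Sis to Mgam. Per 1000 counts of the 16 epithelial markers, Lct had 59.2, 3.59 and 186 counts in the Cre-negative and 0.781 and 111 in the Cre-positive mice, so its spread was as wide on this base. Slc5a1 had 307, 268 and 388, and 132 and 282.

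The other genes of sugar handling were read from a list of 51 by function, of which 44 had a row and 38 were tested. After adjustment over all genes tested, 0 of the 38 passed in either direction (edgeR), beside 0% of all genes, and 0 had an unadjusted p under 0.05, beside 3.38%. Of the 38, 10 were positive and 28 negative, with a median log2 fold change of -0.28. Over all genes tested 6527 were positive and 7825 negative, with a median of -0.04. The Gata4 order was shown by 7 of the 38, beside 2.31% of all genes tested, among them Tkfc, G6pc, Slc37a4, Slc5a4b, Slc5a11 and Galm. Tkfc, encoding the triokinase that acts after Khk in fructose breakdown, had 73.1, 66.3 and 128 CPM in the Cre-negative and 32.9 and 106 CPM in the Cre-positive mice. Khk and Tkfc thus shared their ranking of mice. G6pc, encoding glucose-6-phosphatase, which releases free glucose, varied more, at 45.5, 13.5 and 94.8 CPM in the Cre-negative and 5.22 and 77.1 CPM in the Cre-positive mice. Slc5a4b, a relative of Slc5a1, ran from 0.774 CPM in Cre-positive 1, by way of 4.08 CPM in Cre-negative 2, to 46.0, 46.5 and 62.6 CPM in Cre-negative 1, Cre-positive 2 and Cre-negative 3. Pck1, for the gluconeogenic enzyme phosphoenolpyruvate carboxykinase, did not follow this order, with 72.1, 10.7 and 70.9 CPM in the Cre-negative and 11.8 and 33.0 CPM in the Cre-positive mice. Hk2, for hexokinase 2, was high where the sugar genes were low: Cre-negative 2 had 133 CPM of it and Cre-positive 1 had 159 CPM, against 8.39, 14.8 and 28.6 CPM in the rest. At a mean of at least 10 CPM, the lower pathway gene with the smallest unadjusted p was the glucose and mannose carrier gene Slc5a9, at -0.58 ± 0.30 on the log2 scale (edgeR adjusted p = 0.977).

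Regulators of position and sugar response were listed separately, 25 in all, with 23 tested and 0 called by edgeR in either direction; 2 were higher and 0 lower at an unadjusted p under 0.05, beside 1.6% and 1.78% of all genes. Those 2 were Prdm1 at 1.31 ± 0.36 and Foxa1 at 1.22 ± 0.42 on the log2 scale (edgeR adjusted p = 0.977), both highest in Cre-positive 1, at 52.6 and 66.8 CPM, and at 26.0 and 23.2 CPM in Cre-positive 2. Mlxipl, encoding the sugar-sensing factor ChREBP, had 96.1, 81.7 and 129 CPM in the Cre-negative and 28.1 and 100.3 CPM in the Cre-positive mice, in the Gata4 order. Creb3l3, a factor of lipid and fasting metabolism, showed it too, from 181 CPM in Cre-negative 3 to 30.8 CPM in Cre-positive 1. Several enterocyte factors varied little while the sugar genes varied widely. Hnf4a ran from 400 to 615 CPM, Cdx2 from 26.8 to 43.2 CPM, and Gata6, a relative of Gata4 present along the whole gut, from 95.2 to 136 CPM. Txnip, a glucose-induced gene, ran from 187 to 280 CPM. Onecut2, a proximal factor, had 69.4 CPM in Cre-negative 3 and 1.48 to 3.89 CPM in the other 4, which sets that mouse apart from Cre-positive 2, the next in the Gata4 order.

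**Figure D4:**
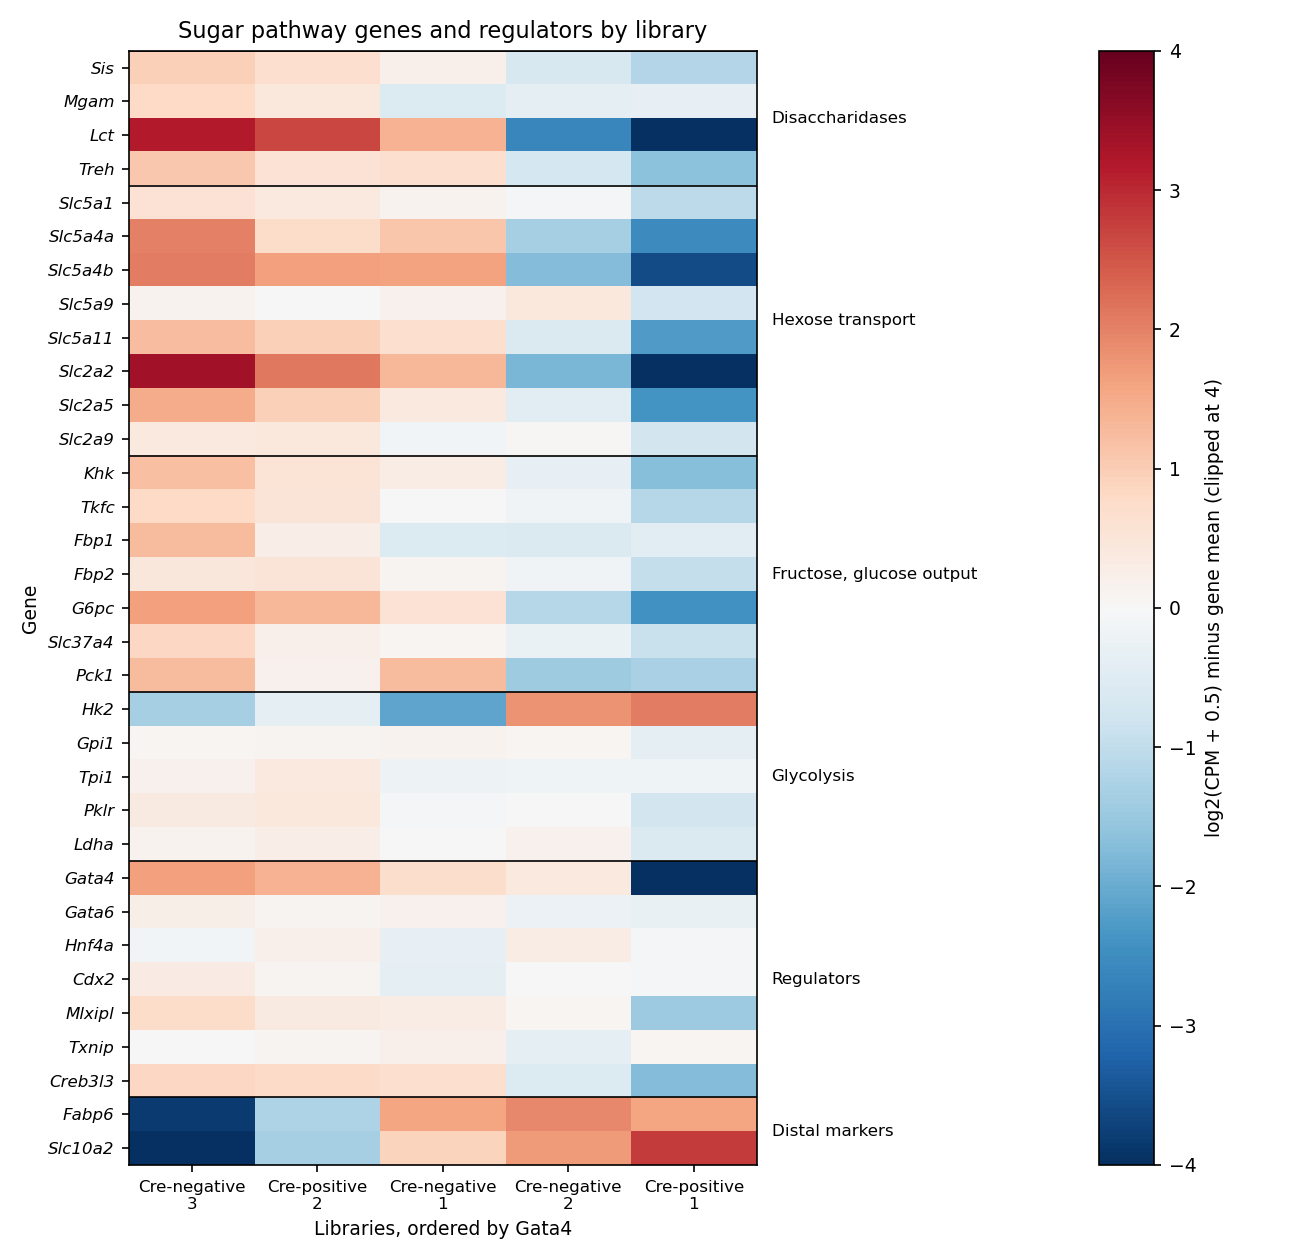
Heat map of sugar genes, pathway genes, regulators and the distal markers Fabp6 and Slc10a2 in the 5 libraries, ordered by Gata4; colour is log2(CPM + 0.5) minus the gene's mean, clipped at 4. Lct, Slc2a2, Slc5a4b, Slc5a11 and G6pc grade from red to blue, Slc10a2 grades the other way, Hk2 is highest in the last 2 libraries, and Hnf4a, Cdx2 and Txnip stay near white.

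The genes whose pattern over the 5 libraries was most like the mean of the sugar genes were Epn1, Rbp2, Apoc3, Bpnt1 and Slc25a46, each with Pearson r above 0.995 on log2 CPM among 2713 genes at a mean of at least 50 CPM. Over 5 libraries such values are common: 11.2% of those genes had r over 0.9. Rbp2, the vitamin A binding protein of enterocytes, was at 59.4, 29.8 and 122 CPM in the 3 Cre-negative mice and at 92.3 CPM in Cre-positive 2, and lowest in Cre-positive 1. Apoc3, an apolipoprotein of triglyceride-rich particles, spanned more, from 10.6 CPM in Cre-positive 1 to 370 CPM in Cre-negative 3. Epn1 and Slc25a46 moved little, with log2 gaps of 0.54 and 0.55. Most like Gata4 itself, among 7006 genes at a mean of at least 10 CPM, were Med25, Cyp4b1, Pex19, Ilvbl and Serf2. Of these only Cyp4b1, a cytochrome P450 gene, had a gap above 2 on the log2 scale, from 8.13 CPM in Cre-positive 1 to 72.7 CPM in Cre-positive 2.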

How the data were processed

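Total RNA of whole small intestine, depleted of ribosomal RNA, was sequenced from 5 mice. The authors deposited a single table of estimated counts per gene with a column for each mouse. Partek and mm10 are named in the submitters' processing notes, and what aligner, annotation, counting rule and strand setting were used is not stated in the sources. Values that were not whole made up 19.6% to 21.6% of a library (tolerance 0.005), and all were rounded. Totals were 4681119 to 6618204, and no row lacked a gene name. Tkfc was not whole in 3 libraries and Slc2a2 in 1. Replicate numbers follow record order and pair no mice.

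Genotype alone was fitted with edgeR 4.0.16 (R 4.3.3): TMM factors, filterByExpr (minimum count 10), robust quasi-likelihood and Benjamini-Hochberg adjustment at 0.05. The SE is the fold change over the square root of F. Single values over 3 and 2 mice cannot go below p = 0.1 in an exact permutation test, so none is given. Intervals are exact at 95% and cover counting error only. DESeq2 1.42.0 and limma-voom (limma 3.58.1) were alternatives. All 3 tests were run on simulated counts, where the criterion was the recovery of median fold changes. A shift in a single mouse was not simulated. Exon lengths and coordinates came from GENCODE M21 on GRCm38, to which 98.6% of symbols matched, as the union of exons. Upstream sequences came from RefSeq's GRCm38.p6 table, where 9 of 9 genes matched. Exons of Treh overlap Phldb1 on the opposite strand by 2 bases, and the other 8 genes overlap none.

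The members and lists were chosen with earlier results of these data known. Named genes were the 9 members and Gata4, pathway and regulator genes taken for their role or as the 3 with the smallest p in each direction at a mean of at least 10 CPM over both lists, and the 5 genes most like each pattern. Slc5a4b, Hk2, Creb3l3, Galm, Slc37a4 and Slc5a11 were named after their values were seen. Some genes that this rule names are not reported here.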

Additional observations from a re-analysis of the deposited data

How the results depend on the processing

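The 9 sugar genes were called under none of the alternatives run. With all 5 mice, 80 of 89 of their fold changes kept direction under the alternatives that move a fold change. That count takes in Treh at -0.0024 and Khk at -0.0003 with Gata4 as a covariate, values too small to give a direction. Mgam was likewise compared with a main value of only 0.0018. Fbp1 could not be fitted at 5 CPM in 2 libraries, which its counts did not pass. The exceptions were Mgam, at -0.035 with library totals only, -0.18 with epithelial counts as the library size and -0.48 with an epithelial score as a covariate, and the 6 genes that turned with Gata4 as a covariate (Sis 0.38, Lct 0.85, Slc5a1 0.074, Slc2a2 0.066, Slc2a5 0.20 and Fbp1 0.10). The cause was not tested. The epithelial score also moved Lct to -5.98, Slc2a2 to -6.24, Gata4 to -4.31, Slc2a5 to -2.85, Khk to -2.07, Treh to -1.83, Sis to -1.29, Slc5a1 to -1.18 and Fbp1 to -1.04. With limma-voom, which averages logarithms, Lct had -1.61, Slc2a2 -2.46, Gata4 -2.48, Slc2a5 -1.20, Sis -0.42 and Fbp1 -0.19. Scaling by epithelial counts moved the median of all genes from -0.04 to -0.21, and Sis to -0.52, Lct to -0.57, Slc5a1 to -0.64 and Gata4 to -0.90.

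Leaving out each mouse in turn reversed 15 of 45 fold changes. They ranged from -1.43 to 0.40 for Sis, -6.74 to 1.26 for Lct, -2.19 to 0.073 for Treh, -0.37 to 0.57 for Mgam, -1.27 to 0.18 for Slc5a1, -7.90 to 0.72 for Slc2a2, -3.30 to 0.29 for Slc2a5, -2.25 to 0.051 for Khk, -0.87 to 0.68 for Fbp1 and -6.19 to 0.41 for Gata4. The lowest edgeR adjusted p among them was 0.332 for a sugar gene (Slc2a5 without Cre-positive 2) and 0.0715 for Gata4. Over all genes edgeR called 0, DESeq2 19, and edgeR 0 to 58 with a mouse left out, the 58 without Cre-positive 2. Levels per kilobase on the longest transcript were up to 1.34 times those on the union of exons. No paired analysis was possible because the labels give the mice no shared replicate numbers. Depth limits Fbp1 everywhere and Slc2a2 and Gata4 in Cre-positive 1.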
